A study of Homo sapiens with 6 samples.

Results

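Chromatin accessibility was examined at 10 genes of the epithelial and mesenchymal cell states: CDH1, CDH2, VIM, SNAI1, SNAI2, ZEB1, ZEB2, TWIST1, FN1 and EPCAM. Every region of the ATAC-seq count table that lay inside one of these genes, or within 50 kb of it in the GENCODE release 44 annotation of hg38, was taken, which gave 180 of 171517 regions. The choice used positions and gene names, and no measured value. CDH1 held 37 of these regions, ZEB2 36, EPCAM 28, SNAI1 27, CDH2 13, TWIST1 12, FN1 8, VIM 8, SNAI2 7 and ZEB1 4, and no region was shared between genes. The libraries came from H9 (WA09) cells, an established human embryonic stem cell line, held in the naive state as naive embryonic stem (nES) cells in the medium labelled tt2iLIFGo. All 6 cultures had been depleted of their mouse feeder layer, plated on laminin and exposed for 24 h to 4 mM dm-αKG (dimethyl-α-ketoglutarate, a form of α-ketoglutarate that enters cells) or to control medium without dm-αKG. The labels name DMSO for the control and the methods 0 mM, and there were 3 libraries per treatment, named below by their replicate number as control library 1 to 3 and treated library 1 to 3. ATAC-seq inserts sequencing adapters into open chromatin, so that a region's read count measures its accessibility, not the expression of a gene. All libraries stem from 1 cell line and 1 experiment, so that the p-values measure the spread between these cultures.

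Epithelial cells adhere through E-cadherin, the product of CDH1, and through the surface molecule encoded by EPCAM. In an epithelial-mesenchymal transition these molecules give way to N-cadherin (CDH2), to the intermediate filament protein vimentin (VIM) and to the matrix glycoprotein fibronectin (FN1). The switch is driven by transcription factors of the SNAI, ZEB and TWIST families, of which SNAI and ZEB proteins bind E-box letters in the CDH1 promoter and repress it. Pluripotent stem cells carry E-cadherin and EPCAM at their surface. α-Ketoglutarate is a co-substrate of the dioxygenases that demethylate DNA and histones.

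The sequences of 5 regions that passed the test described below show what was counted. They are given 5′ to 3′ on the plus strand of hg38, with capitals at the letters of a searched motif: the SNAI and ZEB E-box CACCTG, the KLF letters GGGNGTGG, the FOX letters TGTTTAC or the NRF2 letters TGACNNNGC, on either strand. The region 43.2 kb downstream of the EPCAM start, at chr2:47388262-47388485, lay beyond the 3′ end of the gene and had the smallest p of the regions that rose. Its capitals mark the reverse complement of the SNAI and ZEB E-box and, near its end, an NRF2 match.
EPCAM downstream: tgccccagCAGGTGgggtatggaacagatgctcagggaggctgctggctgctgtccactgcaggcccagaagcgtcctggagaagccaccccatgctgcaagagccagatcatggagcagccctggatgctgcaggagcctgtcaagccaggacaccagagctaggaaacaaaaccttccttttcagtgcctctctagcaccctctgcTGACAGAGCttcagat
The region at chr20:49999050-49999249, 16.2 kb from the SNAI1 start on its downstream side, was the region with the greatest gain and holds 1 FOX match.
SNAI1 downstream: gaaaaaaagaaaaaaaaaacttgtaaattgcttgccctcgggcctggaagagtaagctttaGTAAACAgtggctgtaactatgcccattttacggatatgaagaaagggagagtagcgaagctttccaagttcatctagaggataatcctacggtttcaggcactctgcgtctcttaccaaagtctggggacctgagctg
An intronic CDH1 region at chr16:68810945-68811155 lost accessibility and holds 2 KLF matches and 1 SNAI and ZEB E-box.
CDH1 intron at 73.8 kb: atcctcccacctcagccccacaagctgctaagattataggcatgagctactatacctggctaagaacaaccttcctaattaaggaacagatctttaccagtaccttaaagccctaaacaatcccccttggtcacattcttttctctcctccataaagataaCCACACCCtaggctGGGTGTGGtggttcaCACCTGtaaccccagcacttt
The ZEB2 region at chr2:144346215-144346420, downstream of the gene, holds 1 KLF match.
ZEB2 downstream: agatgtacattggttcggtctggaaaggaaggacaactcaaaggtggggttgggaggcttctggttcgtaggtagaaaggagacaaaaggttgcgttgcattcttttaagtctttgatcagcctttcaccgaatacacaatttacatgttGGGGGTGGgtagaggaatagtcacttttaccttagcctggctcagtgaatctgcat
The FN1 promoter region is shown for its part upstream of the transcript, chr2:215436074-215436236, in which none of the motifs searched was found. FN1 is read from the minus strand, so the transcript begins to the left of these letters.
FN1 promoter: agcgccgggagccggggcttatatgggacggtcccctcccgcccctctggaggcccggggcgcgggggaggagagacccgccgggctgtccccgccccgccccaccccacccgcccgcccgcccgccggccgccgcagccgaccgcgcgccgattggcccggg

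Accessibility near the 10 genes shifted in both directions and mostly by less than 2-fold. A region was called less or more accessible at an adjusted p below 0.01 (edgeR's quasi-likelihood test, Benjamini-Hochberg adjustment over all 171517 regions) and a log2 fold change of dm-αKG against control beyond 1 in size. By this rule 1 of the 180 regions, in ZEB2, was less accessible, against 1.96% of all regions, and 1, near SNAI1, was more accessible, against 0.782% of all regions. At the same adjusted p and any fold, 13 regions fell (7.22% of the 180, against 6.54% of all regions) and 4 rose (2.22%, against 3.34% of all regions). The shares near the 10 genes lay near those of the whole table. All 3 dm-αKG values lay below all 3 control values in 28 regions (15.6%, against 16.9% of all regions) and above them in 29 (16.1%, against 15.5% of all regions). The median log2 fold change was -0.05 over the 180 regions and 0.01 over all regions, with a range among the 180 from -1.56 to 1.63. Of the 13 regions that fell, 5 lay at CDH1, 3 at ZEB2, 2 at FN1, 2 at EPCAM and 1 at SNAI1. Of the 4 that rose, 2 lay at EPCAM and 2 at SNAI1. With DESeq2 in place of edgeR, 9 of the 17 missed the threshold, among them the CDH1 regions at 15.4, 74.3 and 79.7 kb (adjusted p = 0.015, 0.0228 and 0.0105) and single regions of EPCAM at 34.8 kb upstream (0.0201), FN1 at 108.4 kb (0.0251), SNAI1 at 14007 bases upstream (0.0237) and ZEB2 at 194.0 kb (0.0158). None of the 44 regions at CDH2, VIM, SNAI2, ZEB1 and TWIST1 passed the test, against 6.54% of all regions that fell and 3.34% that rose. These genes are grouped by this outcome, so the count is no contrast with the other genes. Their regions were also weaker, with a median normalized control count of 50.6 against 65.3 over all regions.

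**Figure D1:**
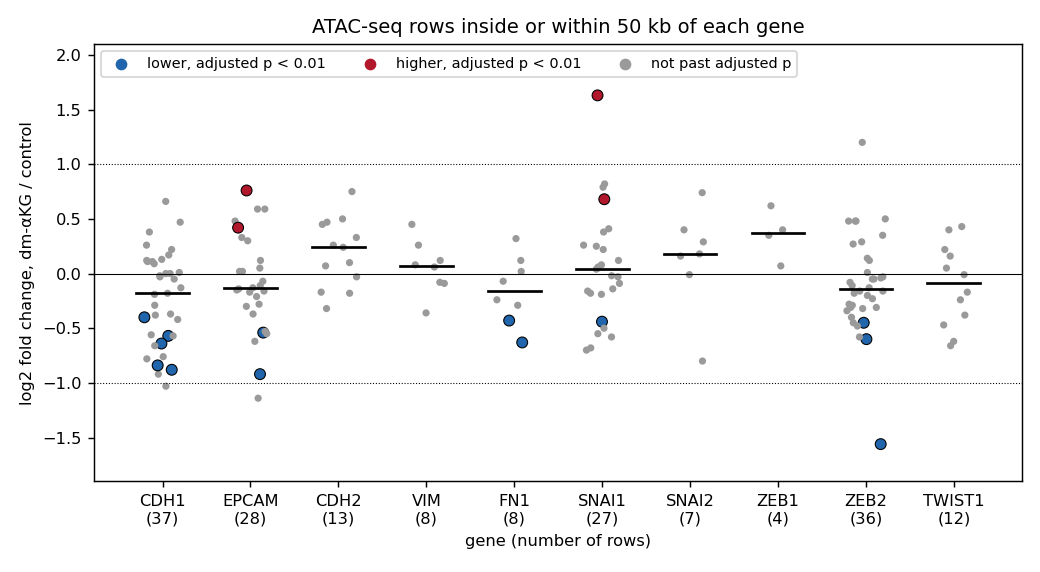
Log2 fold change of dm-αKG against control (vertical axis) of each of the 180 regions, one point per region, by gene (horizontal axis, with the number of regions). Blue points fell and red points rose at an adjusted p below 0.01, black bars are medians, and dotted lines mark a log2 fold change of -1 and 1. One ZEB2 point lies at -1.56 and one SNAI1 point at 1.63, and most other points lie between the dotted lines.

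Library totals over the table ran from 13025674 to 26828622 counts, the dm-αKG group holding both the deepest and the shallowest library. Values below are normalized counts, that is counts scaled to a common library size of 19511228 with TMM factors. At 24 h, promoter regions of the labelled cell state were open: the 6 naive markers with a region lay between the 54.1 and 99.0 percentiles of all regions per kb, while the 6 primed markers lay between 70.0 and 97.1, so that promoter accessibility did not set these lists apart.

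CDH1 (E-cadherin, ENSG00000039068, chromosome 16, 68737292 to 68835537, plus strand) kept its promoter open and lost accessibility at 5 regions inside the gene. That is 5 of its 37 regions, while 6.54% of all regions fell. The promoter region at 68737107 to 68737311, which spans the gene start, measured 682, 613 and 573 in control and 686, 695 and 635 in dm-αKG. The groups overlapped, and the log2 fold change of 0.11 ± 0.07 (SE) did not pass the test (adjusted p = 0.316). Inside the gene, 18 of 22 regions had a negative fold change, and outside it 6 of 15 did, against 48.8% of all regions. That last share includes the 50907 regions near a protein-coding start, of which 33.9% had a negative fold change. It is therefore a low mark for the regions in CDH1 introns. Across all 37 CDH1 regions the dm-αKG values lay wholly below the control values in 14 (37.8%, against 16.9% of all regions) and wholly above in 4 (10.8%, against 15.5%), and the median log2 fold change was -0.18.

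The CDH1 region of smallest p was the intronic one at 73.8 kb from the gene start, shown above with its KLF and E-box letters. It measured 232, 240 and 181 in control and 144, 124 and 154 in dm-αKG, so that all treated values lay below the control values. Its log2 fold change was -0.64 ± 0.13 (adjusted p = 9.67e-05), and it passed the test with each library left out in turn. A region 0.6 kb further along, at 68811524 to 68811724 and overlapping a CDH1 exon, measured 317, 290 and 265 against 205, 224 and 239. It fell by 0.40 on the log2 scale (SE 0.11, adjusted p = 0.00363), and the call was lost when any 1 of 4 libraries was left out (control libraries 1 and 2 and treated libraries 1 and 2, adjusted p from 0.0124 to 0.0644). Both lie near an internal transcript start of CDH1, at 1033 and 459 bases. These neighbouring regions thus moved the same way while the main promoter did not pass.

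The other 3 CDH1 regions that fell lie in introns. The region at 23.1 kb measured 207, 232 and 170 in control and 128, 155 and 135 in dm-αKG (log2 fold change -0.57 ± 0.13, adjusted p = 0.000793). The call was lost without control library 2 (adjusted p = 0.033) and without treated library 1 (0.0211). The region at 15.4 kb, 68752627 to 68752826, measured 70.7, 82.2 and 64.4 against 48.0, 35.9 and 29.9. Its log2 fold change of -0.88 ± 0.22 (adjusted p = 0.00215) no longer passed without control library 2 (0.0325), treated library 2 (0.0144) or treated library 3 (0.0117). The region at 79.7 kb, 68816933 to 68817132, measured 95.7, 79.7 and 81.4 against 47.3, 59.0 and 35.9 (-0.84 ± 0.20, adjusted p = 0.00147). Without control library 1 its adjusted p was 0.0251 and without treated library 1 it was 0.0134. In all 5 regions the groups did not overlap, which their selection by the test made likely. The regions at 15.4 and 79.7 kb were in the authors' peak list of control and absent from that of dm-αKG. These lists were made from the same libraries and add no support. In the positive direction the smallest p belonged to an intronic region at 19.1 kb, with 75.1, 84.7 and 79.0 in control and 102, 123 and 109 in dm-αKG. Its log2 fold change of 0.47 ± 0.17 did not pass (adjusted p = 0.0402).

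**Figure D2:**
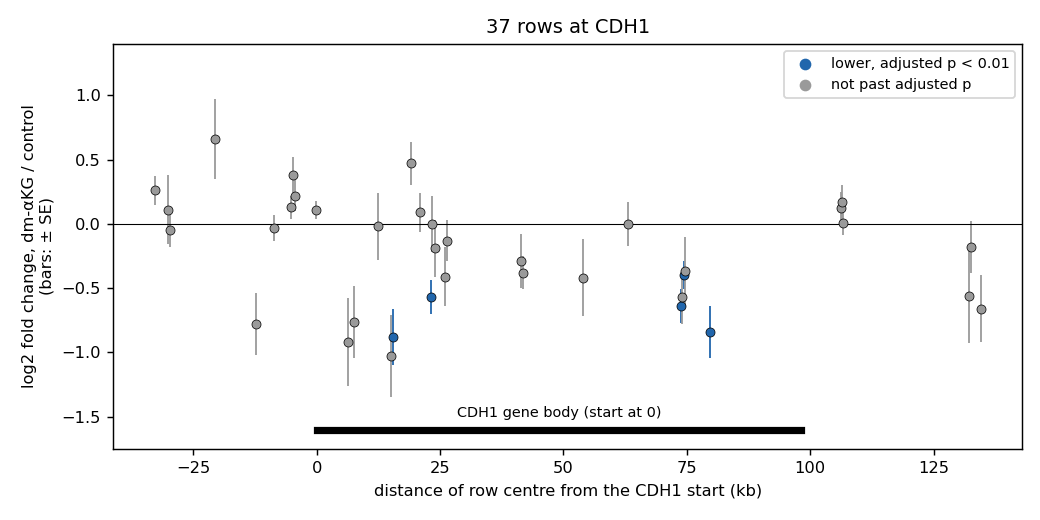
Log2 fold change with its SE (vertical axis) of the 37 regions at CDH1 against the distance of each region's centre from the gene start in kb (horizontal axis). Blue points fell at an adjusted p below 0.01, and the bar marks the gene body. The point at the start lies at 0.11, and the blue points lie between 15.4 and 79.7 kb inside the gene.

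EPCAM (ENSG00000119888, chromosome 2, 47345158 to 47387601, plus strand), which encodes an adhesion molecule of epithelial and pluripotent cells, had 2 regions that rose and 2 that fell, all outside the gene. These are counts out of 28 regions, while over all regions 3.34% rose and 6.54% fell. The promoter region at 47345035 to 47345248 measured 590, 533 and 573 in control and 483, 536 and 510 in dm-αKG. The values overlapped between 533 and 536, and the log2 fold change was -0.15 ± 0.08 (adjusted p = 0.16). The downstream region whose sequence opens the list above measured 190, 206 and 189 in control and 303, 357 and 344 in dm-αKG. All treated values lay clear above the control values. It rose by 0.76 ± 0.10 on the log2 scale, a 1.70-fold gain (adjusted p = 1.65e-08), and passed the test under every alternative run. This region starts within 1 kb of the 3′ end of EPCAM, 14598 bases from the nearest protein-coding transcript start, which is one of EPCAM.

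Another EPCAM region that changed lay 34.8 kb upstream of the gene start. This region, at 47310235 to 47310452 in an exon of the divergent transcript EPCAM-DT, measured 162, 160 and 154 against 105, 128 and 94.3. It fell by 0.54 on the log2 scale (SE 0.15, adjusted p = 0.00416), and without control library 1 or 2 or treated library 1 or 3 the adjusted p lay between 0.0171 and 0.0392.

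Among the 3 mesenchymal genes, accessibility fell at the promoter of FN1, and no single region of CDH2 or VIM passed the test. FN1 (fibronectin, ENSG00000115414, chromosome 2, 215360440 to 215436073, minus strand) had its promoter region at 215436032 to 215436236, across the first exon and the bases before it. This region measured 377, 356 and 404 in control and 290, 250 and 301 in dm-αKG, and the groups did not overlap. The log2 fold change was -0.43 ± 0.09 (adjusted p = 0.000411). Of the 45 regions within 1 kb of a transcript start of the 10 genes, 3 fell, among them the CDH1 regions at 73.8 and 74.3 kb. Among the most open such region of each gene, that of FN1 alone passed. Its adjusted p was 0.0123 without treated library 2. A second region, 108.4 kb from the start beyond the 3′ end and nearer to ATIC, a purine synthesis gene, measured 123, 131 and 96.0 against 78.9, 70.6 and 77.8 (-0.63 ± 0.17, adjusted p = 0.00454). That call was lost without control library 1 or 2 or treated library 1 or 2 (adjusted p from 0.0184 to 0.0561). The smallest p in the positive direction belonged to a region at the ATIC start with 20.6, 35.3 and 43.7 in control and 43.0, 39.8 and 38.9 in dm-αKG, which overlapped (0.32 ± 0.27, adjusted p = 0.45).

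CDH2 (N-cadherin, ENSG00000170558, chromosome 18, 27932879 to 28177946, minus strand) had 9 of 13 regions with a positive fold change and a median of 0.24, and none passed. Of the 13, 8 lay within 1 kb of one of its transcript starts. Over all 50907 regions near a protein-coding start the median was 0.10, and 33.9% had a negative fold change. The promoter region at 28176971 to 28177171 measured 131, 141 and 119 in control and 131, 153 and 142 in dm-αKG, which overlapped (0.10 ± 0.14, adjusted p = 0.663). The region of smallest p, at 28176186 to 28176545, measured 70.7, 69.0 and 69.2 in control and 74.6, 104 and 127 in dm-αKG. The treated values all lay above control but spread widely, and the log2 fold change of 0.50 ± 0.19 had an adjusted p of 0.0467 (0.73 and 0.00919 without treated library 1, 0.32 and 0.268 without treated library 3). In the negative direction the smallest p was that of a region 11.6 kb upstream, with 36.7, 49.3 and 26.7 against 31.6, 24.4 and 35.9 (-0.32 ± 0.28, adjusted p = 0.461).

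VIM (vimentin, ENSG00000026025, chromosome 10, 17228241 to 17237593, plus strand) had 6 regions in the gene, all within 1 kb of one of its transcript starts, and 2 at the neighbouring TRDMT1. The most open of the 6, at 17230452 to 17230660, measured 61.7, 87.1 and 70.5 in control and 73.9, 78.3 and 77.8 in dm-αKG. These groups overlapped (0.06 ± 0.19, adjusted p = 0.878), and without control library 1 the value was -0.05. The region next to the annotated gene start measured 49.2, 47.7 and 44.9 in control and 68.8, 70.6 and 52.4 in dm-αKG. Treated values lay above control without passing the test (0.45 ± 0.22, adjusted p = 0.145). Of the VIM regions, 2 also overlap exons of the antisense gene VIM-AS1, and reads over the pair cannot be told apart. The smallest p in the negative direction was that of the weakest VIM region, with 17.9, 16.4 and 12.1 against 16.5, 8.98 and 8.98 (-0.36 ± 0.42, adjusted p = 0.606).

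Of the 5 repressor genes, SNAI1 had 2 of 27 regions that rose and 1 that fell, and ZEB2 had 3 of 36 that fell. SNAI2, ZEB1 and TWIST1 had none past the test. Over all regions 3.34% rose and 6.54% fell, and the counts of single genes were not tested against these shares. SNAI1 (ENSG00000124216, chromosome 20, 49982980 to 49988886, plus strand) encodes the zinc finger repressor Snail. Its promoter region at 49982710 to 49983106 measured 250, 287 and 243 in control and 341, 292 and 298 in dm-αKG. All treated values lay above control, and the log2 fold change of 0.26 ± 0.10 had an adjusted p of 0.0537. The FOX-bearing region shown above measured 7.16, 14.8 and 6.07 in control and 32.3, 29.5 and 28.4 in dm-αKG. The region was barely covered in control and rose by 1.63 ± 0.38 on the log2 scale (3.10-fold, adjusted p = 0.000944). It was in the authors' dm-αKG peak list alone, so that the treated libraries brought it into the set of regions. Its place in that list therefore adds no support to the rise. Without control library 1 the region's adjusted p was 0.0137, and without treated library 1 it was 0.0126.

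At the far upstream side of SNAI1, 45.2 kb from its start and nearer to RNF114, a region measured 71.6, 85.5 and 89.9 in control and 126, 132 and 136 in dm-αKG (0.68 ± 0.16, adjusted p = 0.00127, and 0.0222 without control library 1). At 14007 bases upstream a region measured 219, 238 and 222 against 188, 158 and 145. This fall of 0.44 on the log2 scale (SE 0.12, adjusted p = 0.0047) was lost with each library but treated library 1 left out in turn (adjusted p from 0.0119 to 0.0411). The groups did not overlap in either region, and the regions nearest the SNAI1 start were not among those that passed.

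ZEB2 (ENSG00000169554, chromosome 2, 144364364 to 144521057, minus strand), a zinc finger homeobox repressor, carried the region with the steepest loss. This region, at 144512031 to 144512230 and 8.9 kb inside the gene, overlaps an exon of some annotated ZEB2 transcripts and an intron of others. It measured 61.7, 79.7 and 76.5 in control and 36.6, 20.5 and 8.98 in dm-αKG. The treated values differed more among themselves than the control values did but all lay below them. The log2 fold change was -1.56 ± 0.26, a 2.95-fold loss (adjusted p = 2.25e-06), and it lay between -2.25 and -1.26 with 1 library left out. The region was in the control peak list alone, so that the control libraries brought it into the set. Its place in that list adds no support to the fall.

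The other ZEB2 regions that fell lie beyond its 3′ end and nearer to GTDC1, a glycosyltransferase-like gene. The region 174.7 kb from the start, whose sequence is given above, measured 307, 313 and 277 in control and 200, 171 and 226 in dm-αKG (-0.60 ± 0.11, adjusted p = 1.61e-05). It passed with each library left out in turn. The region at 194.0 kb measured 253, 261 and 223 against 175, 174 and 198 (-0.45 ± 0.11, adjusted p = 0.00267), and its adjusted p was 0.0175 to 0.0319 without control library 1 or 2 or treated library 1 or 2. The most open ZEB2 promoter region, at 144517048 to 144517448, measured 68.9, 67.4 and 104 in control and 86.8, 85.9 and 83.8 in dm-αKG, and the treated values lay inside the control range (0.12 ± 0.18, adjusted p = 0.702). The smallest p in the positive direction was that of a weak region beyond the 3′ end, with 8.94, 13.2 and 15.8 in control and 20.8, 46.2 and 21.0 in dm-αKG (1.20 ± 0.38, adjusted p = 0.0174). Without treated library 3 that value was 1.35 and its adjusted p 0.00884, and without treated library 2 they were 0.74 and 0.27.

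ZEB1 (ENSG00000148516, chromosome 10, 31318495 to 31529814, plus strand), the paralog of ZEB2, had 4 regions, all within 1 kb of one of its transcript starts and none along the rest of its 211 kb. All 4 fold changes were positive, from 0.07 to 0.62, and none passed. Most regions near a protein-coding start rose: 33.9% of all 50907 had a negative fold change, and their median was 0.10. The most open, at 31319419 to 31319620, measured 63.5, 57.5 and 43.7 in control and 87.5, 97.5 and 68.9 in dm-αKG. The groups did not overlap, and the log2 fold change of 0.62 ± 0.20 had an adjusted p of 0.0195. With 1 library left out the adjusted p ran from 0.00669 (without treated library 3) to 0.111 (without treated library 2). Of the 4 regions, 3 overlap exons of the antisense gene ZEB1-AS1.

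SNAI2 (ENSG00000019549, chromosome 8, 48917598 to 48921740, minus strand), which encodes the repressor Slug, had 7 regions, of which 3 lay within 1 kb of its start. Its promoter region at 48921321 to 48921523 measured 253, 250 and 199 in control and 270, 260 and 257 in dm-αKG (0.16 ± 0.11, adjusted p = 0.324). The region just upstream, with the smallest p at this gene, measured 171, 169 and 138 against 204, 210 and 226. The treated values of both regions lay above control, and the upstream one missed the threshold (0.40 ± 0.12, adjusted p = 0.0138), with an adjusted p of 0.0099 with total counts as library sizes and 0.0921 without control library 3. In the negative direction a region beyond the 3′ end measured 29.5, 34.5 and 34.0 in control and 17.2, 30.8 and 7.48 in dm-αKG (-0.80 ± 0.34, adjusted p = 0.0835).

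TWIST1 (ENSG00000122691, chromosome 7, 19020991 to 19117636 with its long annotated transcript, minus strand) encodes a basic helix-loop-helix factor. Its promoter region at 19117531 to 19117746 measured 213, 198 and 188 in control and 219, 208 and 159 in dm-αKG, with overlap (-0.01 ± 0.12, adjusted p = 0.955). A region 0.5 kb inside the gene measured 134, 136 and 130 against 164, 181 and 189, all above control, and had an adjusted p of 0.0249 (0.40 ± 0.13). The smallest p in the negative direction was that of a weak intronic region with 29.5, 23.8 and 24.3 against 12.2, 15.4 and 23.9 (-0.66 ± 0.36, adjusted p = 0.197).

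**Figure D3:**
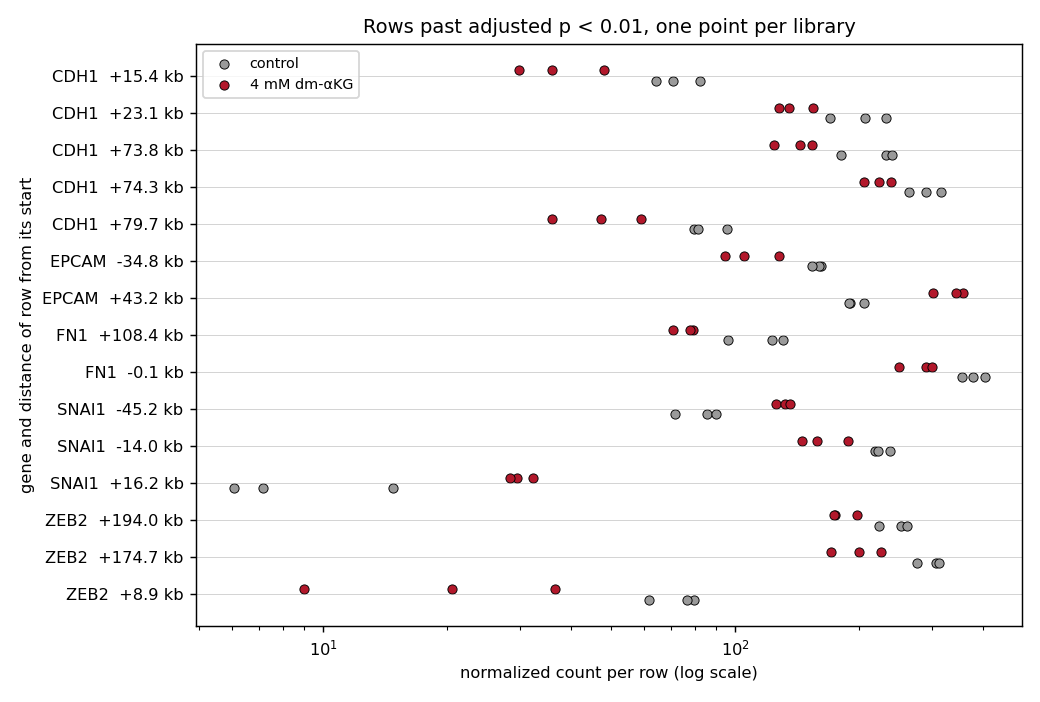
Normalized count (horizontal axis, log scale) in each of the 6 libraries for 15 of the 17 regions that fell or rose at an adjusted p below 0.01, labelled by gene and distance from its start (vertical axis). Grey points are control and red points dm-αKG libraries. In every region shown the groups are separate, with the widest gap at SNAI1 16.2 kb and the widest treated spread at ZEB2 8.9 kb. The regions were picked by the test, which made such separation likely.

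Per kb of region, the promoter regions of the 2 epithelial genes were the most open of the 10 in control. CDH1 measured 3038 ± 267 normalized counts per kb (SD, n = 3), EPCAM 2643 ± 136 and FN1 1849 ± 119. SNAI2 (1153 ± 149) and TWIST1 (925 ± 57.3) followed, and their control ranges overlapped. SNAI1 (654 ± 59.7) and CDH2 (649 ± 53.8) overlapped too, as did VIM (350 ± 61.8) with ZEB1 (272 ± 50.2) and ZEB1 with ZEB2 (200 ± 52.3). Other neighbours in this order had control ranges that did not meet. Among all regions, CDH1 stood at the 98.7 percentile of control counts per kb, EPCAM at 98.0, FN1 at 95.1, CDH2 at 76.5, VIM at 55.6 and ZEB2 at 32.0. The regions ranked are not all alike. Those of VIM and ZEB2 lie 2.3 and 3.8 kb inside the gene at other transcript starts, and the VIM region next to the gene start stood at 36.4. The SNAI1 and ZEB2 regions are wider than the others, at 397 and 401 bases. In dm-αKG the order was the same but for VIM (367 ± 11.6) and ZEB1 (419 ± 72.0), which changed places. A read count per kb reflects openness in all cells of a culture, so that fewer open cells and less openness per cell cannot be told apart.

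**Figure D4:**
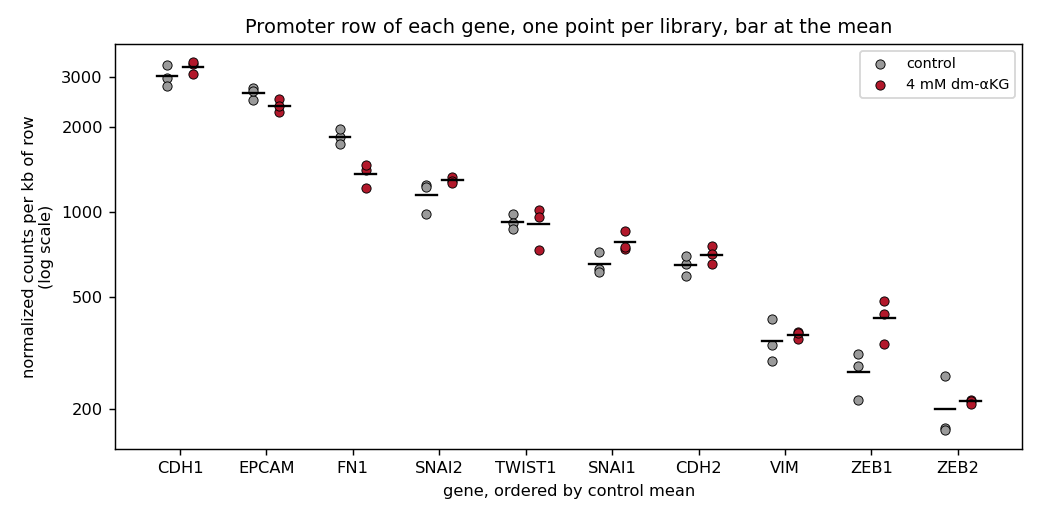
Normalized counts per kb of the promoter region of each gene (vertical axis, log scale), with genes ordered by control mean (horizontal axis). Points are libraries, grey for control and red for dm-αKG, and bars are group means. CDH1 and EPCAM lie highest, ZEB2 lowest, and at FN1 the treated points lie below the control points.

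With all regions of a gene summed, 3 of the 10 genes passed an adjusted p of 0.01 (edgeR, adjusted over 19596 protein-coding genes). FN1 and ZEB2 were lower, against 9.91% of all genes, and CDH2 was higher, against 14.6% of all genes. FN1 summed to 1473, 1394 and 1503 in control and 1322, 1235 and 1274 in dm-αKG, without overlap (log2 fold change -0.18 ± 0.05, adjusted p = 0.00445). Of its 8 regions, 4 lay nearest to FN1. The region at the ATIC start gave a control mean of 714 out of 1457. With regions within 10 kb the FN1 value was -0.32 (adjusted p = 0.00211). The FN1 call was lost without control library 1 (0.032), control library 3 (0.0262) or treated library 2 (0.034). Of the 36 ZEB2 regions, 26 lay nearest to ZEB2, and the region at the GTDC1 start gave a control mean of 696 out of 3972. ZEB2 summed to 4012, 3921 and 3984 against 3548, 3621 and 3824 (-0.12 ± 0.03, adjusted p = 0.0055). This small difference failed to pass with each library but treated library 3 left out in turn, with adjusted p from 0.0155 to 0.0658, nor with total counts as library sizes (0.0152) or regions within 10 kb (0.145). CDH2 summed to 872, 879 and 800 in control and 954, 999 and 983 in dm-αKG, again without overlap (0.20 ± 0.06, adjusted p = 0.00901). Leaving out any of the 6 libraries ended that call, with adjusted p from 0.0102 to 0.0556, as did DESeq2 (0.0142) and regions within 100 kb (0.013).

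The sums of the other 7 genes did not pass. ZEB1 summed to 189, 214 and 164 in control and 250, 263 and 225 in dm-αKG, with a log2 fold change of 0.37 ± 0.12 that stood at the 99.0 percentile of all genes and an adjusted p of 0.0133. With 1 library left out the adjusted p of ZEB1 ran from 0.00396 (without treated library 3) to 0.0709 (without control library 3), and it also passed without control library 2 (0.00715). With regions up to 100 kb from ZEB1 counted, the value was 0.08 (adjusted p = 0.376). SNAI2 summed to 677, 699 and 598 against 766, 757 and 729 (0.19 ± 0.07, adjusted p = 0.029). The treated sums of both repressor genes lay above their control sums. CDH1 summed to 5017, 4968 and 4692 against 4632, 4734 and 4585, which overlapped slightly (-0.07 ± 0.03, adjusted p = 0.0606, or 0.00425 with loess offsets). EPCAM (-0.04 ± 0.03), SNAI1 (0.03 ± 0.03), TWIST1 (0.06 ± 0.07) and VIM (0.10 ± 0.08) had adjusted p-values from 0.337 to 0.503.

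**Figure D5:**
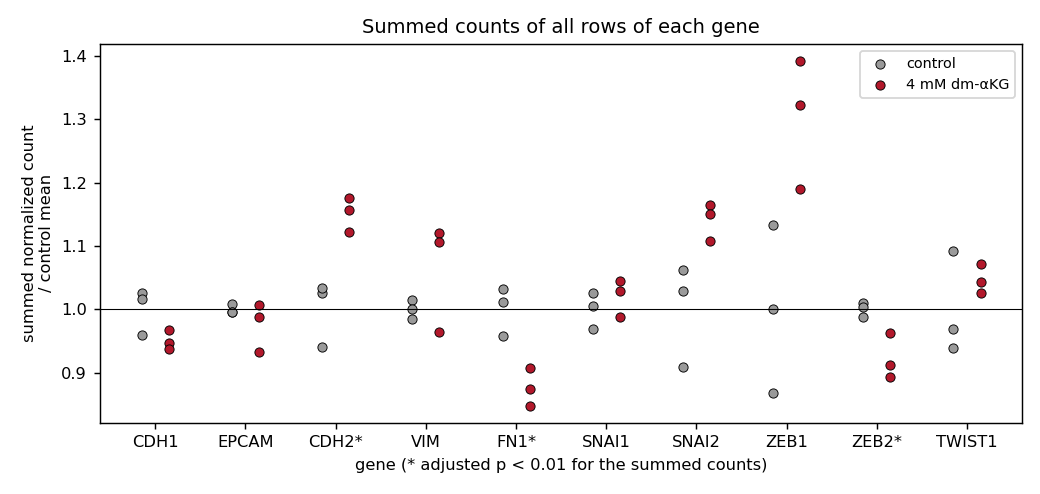
Normalized counts summed over all regions of each gene and divided by the gene's control mean (vertical axis), by gene (horizontal axis). Points are libraries, grey for control and red for dm-αKG, and stars mark an adjusted p below 0.01. Treated points lie below control at FN1 and ZEB2 and above control at CDH2, SNAI2 and ZEB1.

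The SNAI and ZEB E-box CACCTG, searched on both strands in the 200 bases around each region's centre, was present in 47 of the 180 regions (26.1%) and in 21.8% of all regions. By gene it was found in 13 of 27 regions near SNAI1, 12 of 28 near EPCAM, 10 of 37 near CDH1 and 3 of 36 near ZEB2. Of the 13 regions that fell, 2 held it there, and of the 4 that rose, 1 did. The match printed above for the EPCAM downstream region lies outside these 200 bases and is not in the counts, and neither is its NRF2 match. The KLF letters GGGNGTGG were found in 6 of the 13 regions that fell, in 33 of the 180 (18.3%) and in 13.7% of all regions. The general E-box CANNTG, which includes CACCTG, occurred in 98 of the 180 (54.4%, against 62.5% of all regions), the AP-1 letters TGANTCA in 14 (7.78%, against 6.33%), the NRF2 letters in 20 (11.1%, against 9.56%) and the TEAD letters GGAATG in 29 (16.1%, against 14.6%). The SOX letters ACAAAG occurred in 26 (14.4%, against 13.2%), the FOX letters in 6 (3.33%, against 2.86%) and the octamer ATGCAAAT in 1 (0.556%, against 2.28%). Such matches describe letters and do not show that a factor was bound.

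Of the authors' 2 peak lists, that of control alone covered 35 of the 180 regions (19.4%, against 15.4% of all regions) and that of dm-αKG alone 20 (11.1%, against 13.2%). CDH1 had 10 regions in the control list alone and 4 in the dm-αKG list alone, and TWIST1 had 5 and 2. The lists were made from the same libraries as the counts, so they are no separate evidence of a change.

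Of the promoter regions of 65 related genes, 1 fell (1.54%) and 2 rose (3.08%), against 2.08% and 4.47% of all 50907 regions near a protein-coding start. All 3 belong to the 20 genes of epithelial adhesion and junctions, of which 17 did not pass, with a median log2 fold change of 0.09 beside 0.10 over those 50907 regions. CTNND1, which encodes p120-catenin, a partner of cadherins, measured 929, 911 and 839 in control and 659, 711 and 796 in dm-αKG (-0.32 ± 0.07, adjusted p = 0.000349). CLDN3, a tight junction claudin, measured 182, 217 and 193 against 330, 299 and 274 (0.62 ± 0.11, adjusted p = 6.4e-06). LLGL2, a cell polarity gene, measured 325, 381 and 283 against 441, 434 and 395 (0.36 ± 0.09, adjusted p = 0.00244). In these 3 promoters the groups did not overlap, which their selection by the test made likely. None of 9 epithelial regulators with a region (MIR200B had none), 10 further mesenchymal regulators, 15 mesenchymal matrix and cytoskeleton genes (COL3A1 had none) and 11 genes of TGF-beta signalling passed an adjusted p of 0.01, while 1, 2, 2 and 1 of them had an unadjusted p under 0.05 (27.0% of the 50907 regions did). The medians of these 4 lists were -0.05, 0.11, 0.05 and 0.02. The shares and medians set beside the 50907 regions compare unlike sets. Each listed gene gives its most open region, while the 50907 hold every region near a start.

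Promoter sums of cell type markers differed between the groups in some lists, and in part of these the difference rested on 1 gene. Summed over 5 general pluripotency genes, control libraries measured 1897 to 1960 and dm-αKG libraries 1745 to 1771, with TDGF1 lower, and without TDGF1 the sums overlapped (1369 to 1477 and 1351 to 1413). Over 6 primed markers the sums were 1255 to 1308 and 1079 to 1164, with DUSP6 lower, and without DUSP6 they overlapped (783 to 838 and 717 to 798). Over 6 naive markers they were 2055 to 2159 and 2185 to 2257, with KLF17 lower and SUSD2 higher. Without SUSD2 the naive sums overlapped (1290 to 1418 and 1253 to 1314), and the median log2 fold change of the list was 0.02, so that the list moved in no common direction. Over 5 trophoblast markers the sums were 788 to 847 and 904 to 949, with TP63 alone past the test and higher. Without GATA2, which moved this sum most, they stayed apart (550 to 596 and 602 to 650). Over 6 genes of the primitive streak and mesoderm the sums were 1837 to 1862 and 1932 to 1959, with none past the test. Without TBX6 these stayed apart by little (1255 to 1280 and 1284 to 1297). The median log2 fold changes of the trophoblast list and of the streak and mesoderm list were 0.16 and 0.04. Over the 50907 regions near a protein-coding start, an unlike set, the median was 0.10 and 33.9% had a negative fold change. Small rises were thus common among promoter regions. Primitive endoderm sums (841 to 946 and 829 to 993) and those of the fibroblast list (477 to 526 and 517 to 555, from 3 of 8 genes, of which THY1 is also on the primed list) overlapped. The fibroblast genes COL3A1, DCN, LUM, POSTN and PDGFRB had no promoter region, nor had the naive marker DPPA3 and the trophoblast marker VGLL1. The part of these shifts in the values of the 10 genes was not tested.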

How the data were processed

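ATAC-seq was performed on 6 libraries, 3 of control and 3 of dm-αKG, with paired-end reads. The authors demultiplexed with bcl2fastq 2.20.0.422, ran the ENCODE ATAC-seq pipeline on hg38 once per treatment (Bowtie 2, MACS2 peaks, reproducible peaks by IDR) and cut peaks to 200 bp around the summit. They merged these with bedtools 2.28.0 and counted reads per region. The deposited table holds raw counts, without normalization. The deposited peak lists hold a fold enrichment ratio per peak, pooled by treatment, and were used for presence only. Neighbouring merged regions can be wider than 200 bp and share reads at their edges.

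Counts were tested with edgeR 4.0.16 (R 4.3.3): TMM factors, quasi-likelihood test, all 171517 regions, Benjamini-Hochberg adjustment. The SE was derived from the size of the log2 fold change and the F statistic (their quotient after the root of F is taken). Sums over regions inside or within 50 kb of each protein-coding gene were tested likewise, and neighbouring genes share regions there. A promoter region is the most open region within 1 kb of any transcript start of its gene in GENCODE release 44. All region coordinates lay within the hg38 chromosomes of the reference, and positions are counted from 1. DESeq2 1.42.0, other scalings, filters, distances, a replicate block and fits without 1 library were alternatives. In simulated data on 171517 regions with 200 changed, edgeR recovered 188 and DESeq2 166. The changes set there were all beyond a log2 fold change of 1 in size, and the weakest regions were left out. The simulation therefore does not bear on the smaller changes reported above, nor on which tool is right about them. No 2 libraries of a treatment agreed within sampling noise (chi-square per degree of freedom from 1.80 to 2.16). With 3 against 3 libraries an exact permutation test of 1 region cannot go below p = 0.10, so none was used.

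The text names for each gene the promoter region, each called region, the region of smallest p in each direction and the summed counts. Most other regions past an adjusted p of 0.01, and the VIM region at the gene start, were added after their values were seen. The genes, gene lists and motifs were chosen with earlier results of these data known. Values of 2 regions near EPCAM and 1 sequence are not reported here.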

Additional observations from a re-analysis of the deposited data

How the results depend on the processing

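The 17 regions past the adjusted p kept their sign under every alternative that gave a value, and 4 kept their call in all of them (the EPCAM region at 43.2 kb, the CDH1 region at 73.8 kb and the ZEB2 regions at 174.7 and 8.9 kb, the last without a value under the minimum of 10 counts). With DESeq2 8 of the 17 kept their call, so that 5 regions fell rather than 13. The cause was not tested. With total counts as library sizes 7 regions rose rather than 4. With at least 10 counts in every library the ZEB2 region left the table and 0 regions were called less accessible. At an adjusted p below 0.05, 20 regions fell and 16 rose, and 3 were called less and 2 more accessible. Within 10 kb of the genes (112 regions), 7 fell, 1 rose and 0 were called more accessible. Within 100 kb (238 regions), 4 were called less and 2 more accessible. Where the listed gene had to be the nearest start (142 regions), 2 rose. With 1 library left out, 6 to 12 regions fell, 1 to 9 rose, 1 to 3 were called less and 0 to 3 more accessible, and 0 to 3 summed genes passed.

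The promoter values of TWIST1 and VIM and the EPCAM sum, all near 0, changed sign. The promoter of TWIST1 was at 0.00 with total counts, 0.00 with upper quartile scaling, 0.01 with loess offsets and from -0.12 to 0.10 with 1 library left out, that of VIM ran from -0.05 to 0.22 with 1 library left out, and the EPCAM sum was at 0.02 within 10 kb. Of 626 alternative values of the 47 results named, 542 kept call and direction, 66 lost the call, 11 gained it and 7 changed sign.

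Replicate numbers are shared between treatments in the labels, but nothing says that they mark a common culture or day. Deviations of same-numbered libraries correlated at -0.016, -0.0014 and 0.013 across regions, and only number 3 correlated best with its own number. With a replicate block 1 region was called less and 1 more accessible, 13 fell, 4 rose and 4 summed genes passed, the added one being ZEB1 (log2 fold change 0.38, adjusted p = 0.00836). Depth limits the weakest regions: those with control values near 10, such as the SNAI1 region at 16.2 kb, rest on few reads.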
